A study of Homo sapiens with 6 samples.

Results

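The 39 genes described here encode the machinery of autophagy and part of the lysosome it feeds. They were taken by symbol from the probe sets of the array that are annotated to 1 gene, which found 39 of 39 genes and 104 probe sets, out of 19775 genes on the array. In autophagy a double membrane, the autophagosome, closes around cytoplasm and fuses with the lysosome, where hydrolases break the contents down. The ULK kinase complex starts the process, a class III phosphatidylinositol 3-kinase marks the membrane with the lipid PI3P, and a ubiquitin-like conjugation system attaches proteins of the ATG8 family to it. Cargo receptors hold ubiquitinated material to ATG8, and the transcription factors TFEB and TFE3 act on many lysosomal and autophagy genes.

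RNA of 6 cultures of HMLE cells, an immortalized human mammary epithelial line, was measured on Affymetrix U133 Plus 2.0 arrays. The Twist line carries the pBabe-Twist retrovirus, which expresses TWIST, a transcription factor of the epithelial-mesenchymal transition. The control line carries the pBabe-shGFP retrovirus. Each line was given DMSO, the solvent, or the compound Cmp302, named by its code only, at 5 µM or at 10 µM. These doses, with 6 h of treatment, are those of the titles and the treatment protocol. Other label fields disagree, with 2 µM in place of both doses and 4 h and 8 h of treatment, so the arrays are named by their titles and nothing is read from the size of the dose step. Each group is 1 array, so no difference could be set against replicates, and precision is limited by having 6 arrays in all. Each line is 1 infected culture, and a difference between the lines cannot be told apart from one between these infected cultures.

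The epithelial markers CDH1, EPCAM and KRT5 lay at the signal floor of 3.71 log2 units on all Twist-line arrays, against 12.58 to 13.37 on the control-line arrays, and ZEB1, a mesenchymal factor, read 12.72 to 13.16 in the Twist line, against 5.92 to 6.61 in the control line. Of the 6 markers fixed for blood cells, endothelium and fat, PTPRC, CDH5 and ADIPOQ were at the floor on all 6 arrays, CD14 was at most 4.80, PECAM1 read 7.20 to 7.64 in the Twist line, against 3.80 to 4.04 in the control line, and FABP4 read 10.62 to 11.00, against 7.77 to 8.17. The control probe sets for GAPDH and ACTB gave a 3′ minus middle contrast, a sign of RNA integrity, of 0.955, 0.355 and 0.445 log2 units on the Twist-line DMSO, 5 µM and 10 µM arrays, and of 0.28, 0.45 and 0.835 on the control-line arrays in the same order. The widest contrast was thus on the Twist-line DMSO array, from which both Cmp302 changes of that line are counted. The part of this contrast in the results below was not tested. The 3′ minus 5′ contrast of the same control genes was 1.075, 0.93 and 1.065 on the Twist-line arrays in that order. On the control-line arrays it was 0.735, 0.685 and 1.02. The numbers of genes above the floor ran from 11646 to 11841 per array.

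LAMP1, a lysosomal membrane protein, the ULK complex subunit ATG101 and the cargo receptors CALCOCO2 and SQSTM1 rose on Cmp302 in the Twist line. Promoter sequences are shown for these 4 of the members that rose there. Each is the 250 bases before the transcript start used by the RefSeq promoter table of GRCh38.p14, on the plus strand, at chr13:113296989-113297238 (LAMP1), chr12:52069728-52069977 (ATG101), chr17:48830785-48831034 (CALCOCO2) and chr5:179806143-179806392 (SQSTM1). For LAMP1, CALCOCO2 and SQSTM1 that start is the first base of the gene locus, while for ATG101 it lies 4678 bases inside the locus, which begins at 52065300, so the ATG101 window is within the annotated gene. Capitals mark matches to any of 4 motifs searched on both strands.
LAMP1: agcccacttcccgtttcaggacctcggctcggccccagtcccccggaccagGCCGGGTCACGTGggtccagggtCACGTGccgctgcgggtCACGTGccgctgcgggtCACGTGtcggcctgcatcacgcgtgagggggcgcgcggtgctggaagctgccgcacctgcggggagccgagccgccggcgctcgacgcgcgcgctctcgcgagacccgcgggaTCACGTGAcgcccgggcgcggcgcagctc
ATG101: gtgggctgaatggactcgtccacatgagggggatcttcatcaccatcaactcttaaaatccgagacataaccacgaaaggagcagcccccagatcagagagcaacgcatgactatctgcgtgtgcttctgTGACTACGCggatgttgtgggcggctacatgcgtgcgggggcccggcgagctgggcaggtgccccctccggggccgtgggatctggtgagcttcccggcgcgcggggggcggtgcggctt
CALCOCO2: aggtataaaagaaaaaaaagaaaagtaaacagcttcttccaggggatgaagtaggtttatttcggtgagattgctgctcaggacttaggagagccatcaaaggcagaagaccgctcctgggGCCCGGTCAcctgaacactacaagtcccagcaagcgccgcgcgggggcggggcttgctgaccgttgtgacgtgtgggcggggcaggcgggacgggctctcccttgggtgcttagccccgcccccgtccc
SQSTM1: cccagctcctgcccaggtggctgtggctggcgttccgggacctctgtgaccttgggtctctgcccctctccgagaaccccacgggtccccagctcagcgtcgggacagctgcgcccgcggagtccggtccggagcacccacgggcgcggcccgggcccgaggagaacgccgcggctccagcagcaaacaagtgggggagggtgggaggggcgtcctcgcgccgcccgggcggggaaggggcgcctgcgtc

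The motifs were TCACGTGA, the core of the CLEAR element bound by TFEB and TFE3, CACGTG, the E-box that lies inside it, TGATGNAAN, the element bound by ATF4 and CHOP in the amino acid and endoplasmic reticulum stress responses, and TGACNNNGC, the antioxidant response element bound by NRF2. A promoter was found for 35 of the 39 members in the RefSeq table, and the others are CTSB, LAMP2, RB1CC1 and UVRAG. The start used was the edge of the locus for 30 of the 35 and lay inside it for ATG101, BECN1, ATG4A, ATG5 and TFEB. The CLEAR core was in 1 of 35 members, LAMP1, and in 0.89% of all 27305 promoters of the same length. In LAMP1 it starts at -29 from the start used, and 4 further E-boxes start at -192, -176, -159 and -142, the first of them overlapping an antioxidant element at -199. The E-box was in 4 of 35 members, ATG14, ATG3, CTSD and LAMP1, and in 6.49% of all promoters. The antioxidant element was in 6 of 35, ATG101, CALCOCO2, CTSD, CTSL, LAMP1 and MAP1LC3B, and in 11.03% of all promoters. Counted from the starts used, ATG101 holds it at -120, inside its locus, and CALCOCO2, on the other strand, at -129. The ATF4 element was in 0 of 35 members and in 3.18% of all promoters, and the SQSTM1 window held none of the 4 motifs. Nor did the windows of OPTN, WIPI2, ATG5, ATG9A and ATG2A, which also rose on Cmp302 in the Twist line and are not shown. A match describes these letters only, and no binding was measured.

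The first question was what Cmp302 did to these genes in each line. In the Twist line 10 members rose and 3 fell on Cmp302, with the cargo receptors SQSTM1, OPTN and CALCOCO2, the ULK subunit ATG101 and the PI3P reader WIPI2 among those that rose, and the lysosomal membrane protein LAMP2 among those that fell. In the control line no member passed the test in either direction. All 39 members lay above the floor on all 6 arrays, so none dropped out through low signal. At 10 µM the Twist-line changes from DMSO ran from -1.21 to 1.53 log2 units, and those of the control line from -0.625 to 0.435, with 37 of 39 under 0.5 in size.

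The test was limma's moderated test on log2 signals over 12476 genes, with the 5 µM and 10 µM arrays of a line as 1 group against its DMSO array and Benjamini-Hochberg adjustment at 0.05. The fit leaves 2 residual degrees of freedom, which hold the differences between the 5 µM and 10 µM arrays and not a spread between replicates. It called 15.2% of all genes higher and 17.6% lower in the Twist line, against which 10 of 39 members, or 25.64%, were higher and 3, or 7.69%, lower. The median over members was 0.31 log2 units, beside 0.00 over all genes, with 24 members above 0 and 15 below. The members, and the wider lists below, were chosen with earlier results of these data known. An excess over the share of all genes, here or below, is thus not read as a trait of the set. In the control line limma called 0% of all genes higher and 0% lower, and at an unadjusted p under 0.05 it held 1 member, RB1CC1, and 1080 of 12476 genes. A gene that missed the test is not thereby shown to be unchanged. The control-line median over members was 0.02, beside -0.01 over all genes. Leaving out any 1 of the 4 Cmp302 arrays leaves 1 residual degree of freedom, and then 0 members and 0 genes were called in these comparisons.

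Counted from single arrays, without a test, 3 members were higher and 1 lower past 2-fold at 5 µM in the Twist line, beside 4.26% and 5.01% of 11868 genes. At 10 µM 6 were higher and 1 lower, beside 8.04% and 8.67% of 11931 genes. In the control line 0 members passed 2-fold at 5 µM, beside 0.0585% of genes higher and 0.0669% lower, and 0 at 10 µM, beside 0.226% and 0.251%. The 5 µM and 10 µM changes of a line share its DMSO array. Of the 10 members that rose in the Twist line, 8 lay below DMSO in the control line at 10 µM, and of the 3 that fell, 2 lay above it. Over all genes the same held for 81.8% of the 1902 that rose and 79.6% of the 2192 that fell. The 3′ minus middle contrast differed by -0.51 between the 10 µM and DMSO arrays in the Twist line and by 0.555 in the control line, in opposite directions. The 3′ minus 5′ contrast was 1.075 on DMSO and 1.065 at 10 µM in the Twist line, and 0.735 and 1.02 in the control line.

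**Figure D1:**
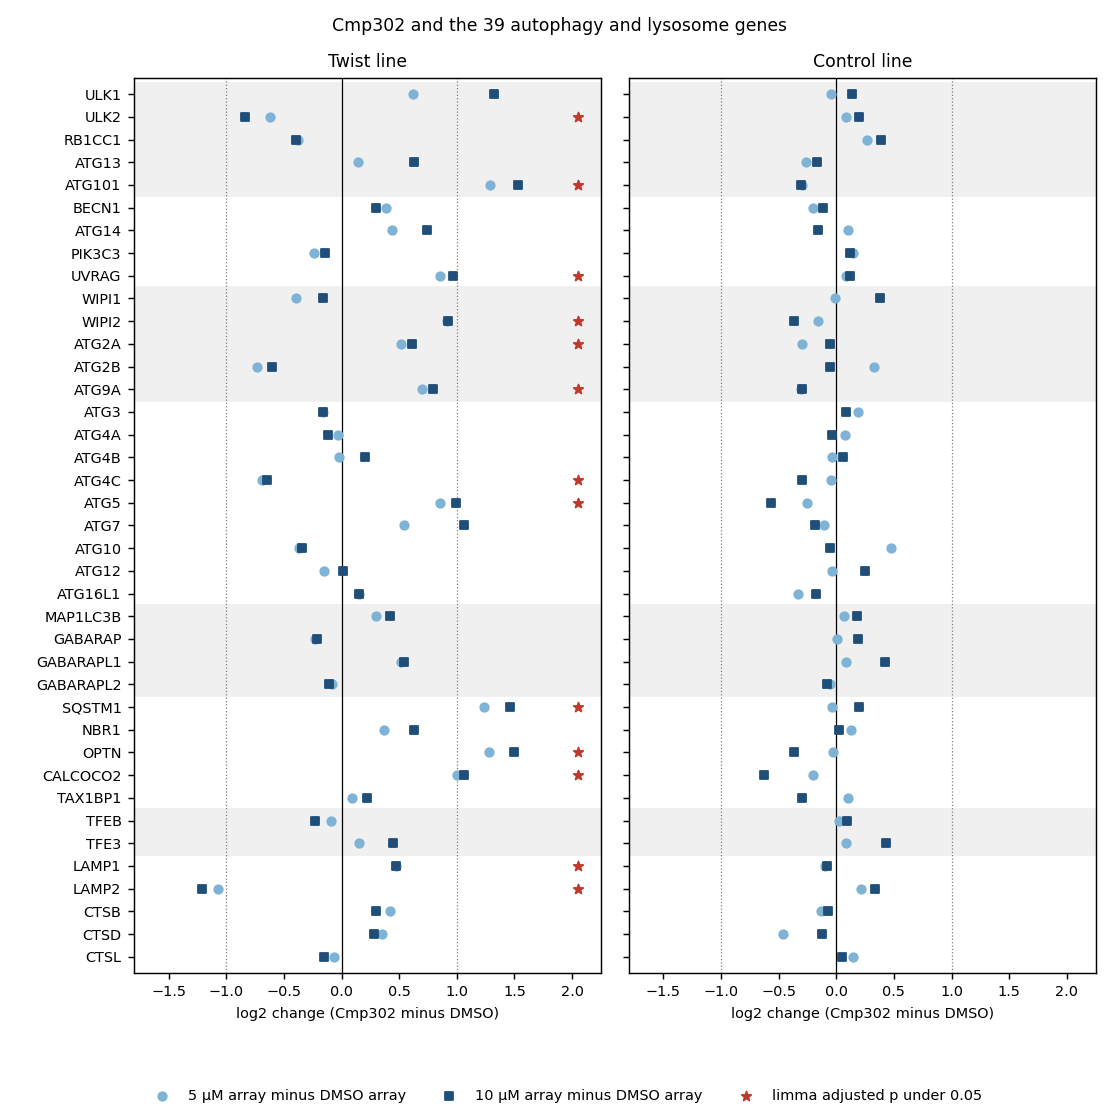
Log2 change from the DMSO array of the same line (horizontal axis) of the 39 members (rows, shaded by role) on the 5 µM array (circles) and the 10 µM array (squares), with the Twist line on the left and the control line on the right. Dotted lines mark 2-fold and stars mark limma calls, 13 in the Twist line and none in the control line.

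The ULK complex starts autophagosome formation. ATG101, its stabilizing subunit, read 8.81, 10.10 and 10.34 log2 units on the Twist-line arrays in the order DMSO, 5 µM and 10 µM, the order of every such triple below, and 9.68, 9.38 and 9.37 on the control-line arrays. The lines were thus in opposite order on DMSO and on Cmp302. In the Twist line ATG101 was 2.44-fold higher at 5 µM and 2.89-fold higher at 10 µM than on DMSO, and rose by 1.41 ± 0.17 (estimate ± SE, limma adjusted p = 0.0127).

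ULK1, the kinase itself, read 5.51, 6.13 and 6.83 in the Twist line and 5.60 to 5.78 in the control line. It was past 2-fold at 10 µM only, at 1.32, and limma did not call it, with 0.97 ± 0.32 and an adjusted p of 0.0682. Its close relative ULK2 went the other way, with 8.96, 8.34 and 8.12 in the Twist line and 9.19, 9.27 and 9.38 in the control line. ULK2 fell by 0.73 ± 0.19 (limma adjusted p = 0.0365), but 1 of its 4 probe sets gave 0.05 at 10 µM, where the brightest gave -0.84.

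RB1CC1, the scaffold also called FIP200, read 12.01, 11.63 and 11.61 in the Twist line and 11.24, 11.50 and 11.62 in the control line. Its lines were apart on DMSO and side by side at 10 µM. The change in neither line passed limma's test, at -0.39 ± 0.12 in the Twist line (adjusted p = 0.0527) and 0.33 ± 0.12 in the control line (adjusted p = 0.561). ATG13, the adaptor subunit, had a Twist-line estimate of 0.38 that limma did not call.

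The class III PI3-kinase complexes hold the lipid kinase PIK3C3 with BECN1 and with either ATG14 or UVRAG. UVRAG, of the complex that acts late and on endosomes, read 9.01, 9.87 and 9.98 in the Twist line and 8.997, 9.08 and 9.11 in the control line. On DMSO the lines were level, and on Cmp302 both Twist-line arrays lay above all control-line arrays. UVRAG rose by 0.91 ± 0.16 in the Twist line (limma adjusted p = 0.0152). ATG14, BECN1 and PIK3C3 were not called, with estimates of 0.59, 0.34 and -0.19.

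The PI3P effectors bring lipid to the growing membrane. WIPI2, which binds PI3P and recruits the conjugation machinery, read 11.32, 12.24 and 12.24 in the Twist line and 11.73, 11.57 and 11.36 in the control line. Its Twist-line signal was lowest of all 6 arrays on DMSO and highest on both Cmp302 arrays. WIPI2 rose by 0.92 ± 0.13 (limma adjusted p = 0.0129). A second probe set gave 0.89 at 10 µM, while others gave 0.04 and -0.27. Those others read lower in the Twist line than in the control line on every treatment.

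ATG9A, the membrane protein of the vesicles that seed autophagosomes, read 8.58, 9.28 and 9.37 in the Twist line and 8.06, 7.75 and 7.76 in the control line. It was higher in the Twist line on every treatment, and rose there by 0.74 ± 0.18 on Cmp302 (limma adjusted p = 0.0299). ATG2A, a lipid transfer protein, read 4.31, 4.83 and 4.92 in the Twist line and 4.65, 4.35 and 4.59 in the control line, close above the floor. ATG2A rose by 0.56 ± 0.15 (limma adjusted p = 0.041). Its relative ATG2B had a Twist-line estimate of -0.67 that was not called, and its 4 probe sets ran from -0.89 to 0.61 at 10 µM.

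WIPI1, a PI3P binder like WIPI2, read 10.40, 10.01 and 10.24 in the Twist line and 7.99, 7.97 and 8.36 in the control line. On Cmp302 its estimate in the Twist line was -0.28, not called, but its other probe set gave 0.72 at 5 µM and 1.36 at 10 µM. The direction of WIPI1 on Cmp302 thus differs between its 2 probe sets, while both read higher in the Twist line on all treatments.

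The conjugation enzymes ATG3, ATG7 and ATG10, the conjugate of ATG5, ATG12 and ATG16L1, and the ATG4 proteases that trim ATG8 form the largest role, with 9 members. Of these 1 rose and 1 fell in the Twist line, beside 15.2% and 17.6% of all genes. ATG5 read 10.57, 11.43 and 11.56 in the Twist line and 11.08, 10.82 and 10.51 in the control line. The lines crossed between DMSO and Cmp302. ATG5 rose by 0.92 ± 0.17 (limma adjusted p = 0.0177), but another of its probe sets gave -1.52 at 10 µM, where the brightest gave 0.99. That other probe set crossed the opposite way, with a Twist minus control difference of 1.11 on DMSO and -0.75 at 10 µM.

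ATG4C, a protease of the family, read 10.08, 9.39 and 9.43 in the Twist line and 9.39, 9.34 and 9.09 in the control line. It fell by 0.67 ± 0.18 in the Twist line (limma adjusted p = 0.0389), to near the control-line DMSO level. ATG7, the E1-like activating enzyme, read 9.61, 10.15 and 10.67 in the Twist line and 9.02, 8.91 and 8.83 in the control line. ATG7 was past 2-fold at 10 µM, at 1.06, and was not called on Cmp302, with 0.80 ± 0.25 and an adjusted p of 0.0601 in limma.

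Of the others in this role, ATG4A read 8.32, 8.29 and 8.20 in the Twist line and 9.84, 9.91 and 9.80 in the control line. ATG4B, a protease of the same family, read 9.87, 9.85 and 10.07, against 8.61, 8.57 and 8.66. ATG16L1, which places the conjugate on the membrane, read 9.79, 9.94 and 9.94, against 9.27, 8.93 and 9.09. These 3 were called between the lines, and their single-array changes on Cmp302 ran from -0.335 to 0.20. ATG3, ATG10 and ATG12 had Twist-line estimates of -0.16, -0.36 and -0.07, none called.

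The ATG8 family is the ubiquitin-like coat of the autophagosome, and 0 of its 4 genes were called in any of the 4 limma terms. MAP1LC3B, whose protein LC3B is the usual marker of autophagosomes, read 11.94, 12.24 and 12.36 in the Twist line and 12.34, 12.40 and 12.51 in the control line. Its Twist-line estimate was 0.36 ± 0.12 (limma adjusted p = 0.0675). The lines were ordered the same way on every treatment, with the Twist line lower.

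GABARAP read 12.44, 12.21 and 12.23 in the Twist line and 12.15, 12.15 and 12.33 in the control line. GABARAPL2 read 12.25, 12.17 and 12.14 in the Twist line and 12.52, 12.46 and 12.43 in the control line, the narrowest pair of ranges of the family. GABARAPL1 read 7.65, 8.17 and 8.19 in the Twist line and 7.95, 8.03 and 8.37 in the control line. Its estimate of 0.53 ± 0.22 was not called (limma adjusted p = 0.123), while its second probe set gave 0.94 at 5 µM and 1.64 at 10 µM in the Twist line.

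The cargo receptors bind ubiquitinated proteins, mitochondria or bacteria and ATG8 at once. Of 5 receptors 3 rose in the Twist line, beside 15.2% of all genes called higher. All 5 estimates, each from the brightest probe set, were above 0, with a median of 1.03, beside 0.00 over all genes. SQSTM1, the receptor p62 that is itself degraded by autophagy, read 10.99, 12.23 and 12.45 in the Twist line and 9.26, 9.22 and 9.45 in the control line. The Twist line was above the control line on every treatment, and its Cmp302 arrays were far above its DMSO array. SQSTM1 was 2.36-fold higher than DMSO at 5 µM and 2.75-fold higher at 10 µM in the Twist line, and rose by 1.35 ± 0.17 (limma adjusted p = 0.0128). A second probe set gave 1.78 at 10 µM, while 2 dim ones gave -0.18 and -0.46.

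OPTN, optineurin, a receptor in the removal of mitochondria and bacteria, read 11.14, 12.42 and 12.64 in the Twist line and 12.22, 12.19 and 11.85 in the control line. On DMSO it was past 2-fold lower in the Twist line, and at 10 µM it was above the control line. OPTN rose by 1.39 ± 0.18 (limma adjusted p = 0.0129), although its other probe set gave 0.10 at 10 µM. That probe set read higher in the Twist line on every treatment, by 0.23 on DMSO, 0.27 at 5 µM and 0.16 at 10 µM. CALCOCO2, the receptor NDP52, read 10.53, 11.53 and 11.59 in the Twist line and 10.69, 10.48 and 10.06 in the control line. CALCOCO2 rose by 1.03 ± 0.20 (limma adjusted p = 0.019), and its second probe set above the floor gave 0.84 at 10 µM. NBR1 and TAX1BP1 were not called, with estimates of 0.50 and 0.15.

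**Figure D2:**
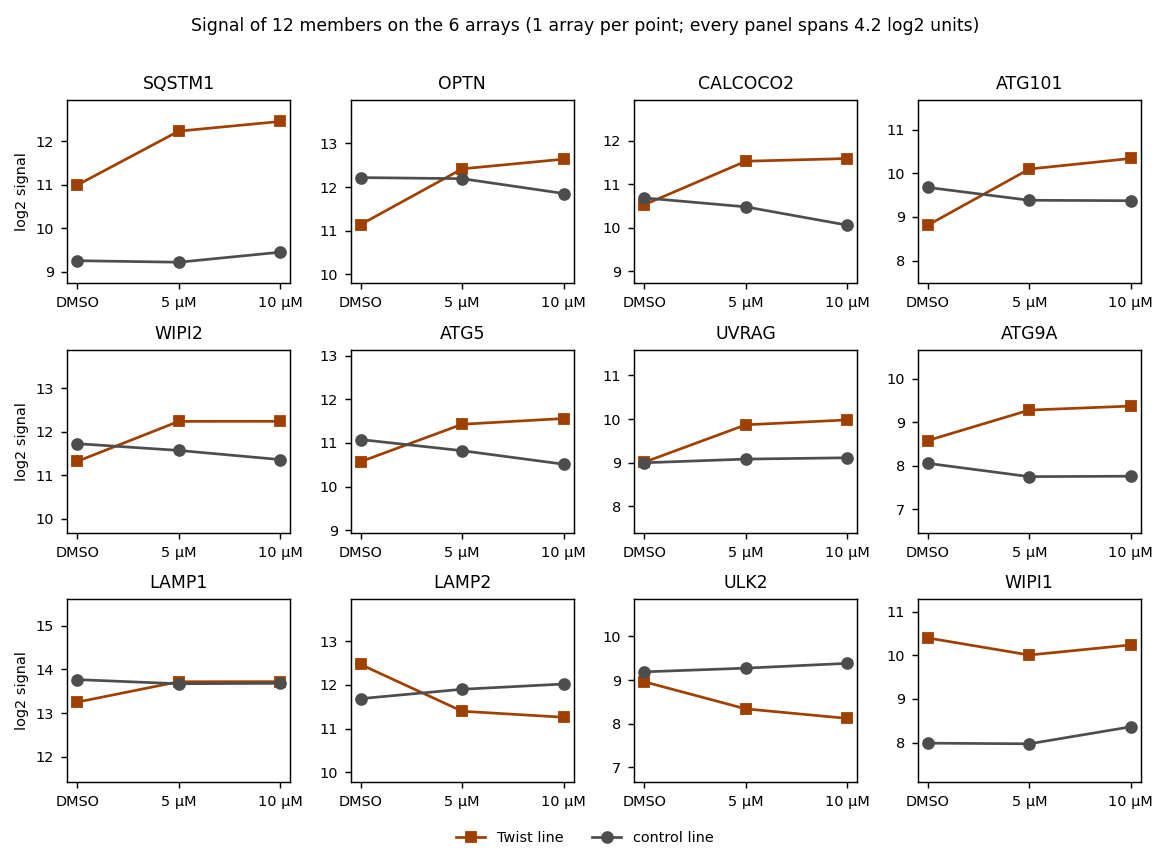
Log2 signal (vertical axis, 4.2 units in every panel) of 12 members on the DMSO, 5 µM and 10 µM arrays, with squares for the Twist line and circles for the control line, 1 array per point. Points are the brightest probe sets. SQSTM1 lies apart between lines on all arrays, while OPTN, CALCOCO2, ATG101, WIPI2, ATG5 and LAMP2 change the order of the lines between DMSO and 10 µM. Not all other probe sets of OPTN, CALCOCO2, WIPI2, ATG5 and LAMP2 show this change of order.

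The lysosomal transcription factors did not pass the test on Cmp302. TFEB read 5.03, 4.94 and 4.80 in the Twist line and 4.08, 4.10 and 4.17 in the control line, with the lines apart on every treatment. The Cmp302 estimates in the Twist line were -0.16 for TFEB and 0.30 for TFE3. These are transcript signals, and the movement of these factors into the nucleus was not measured.

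Among the lysosomal proteins LAMP1 and LAMP2, the most abundant glycoproteins of the lysosomal membrane, went opposite ways. LAMP1 read 13.25, 13.72 and 13.72 in the Twist line and 13.77, 13.67 and 13.68 in the control line. LAMP1 rose by 0.47 ± 0.09 in the Twist line (limma adjusted p = 0.0189), to the level of the control line, while its other probe sets gave -0.27 to 0.06 at 10 µM.

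LAMP2 read 12.47, 11.40 and 11.26 in the Twist line and 11.69, 11.90 and 12.02 in the control line. It was the only member past 2-fold lower on Cmp302, at 5 µM and at 10 µM, and fell by 1.14 ± 0.12 (limma adjusted p = 0.0127). All 4 of its probe sets were lower at 10 µM than on DMSO in the Twist line, from -1.21 to -0.14. In both lines its signal was highest on the array with the widest 3′ minus middle contrast, at 12.47 beside 0.955 in the Twist line and 12.02 beside 0.835 in the control line. ULK2 and RB1CC1 were also highest on these arrays, and ATG101, OPTN, CALCOCO2, ATG5 and WIPI2 were lowest on them. Of the other members called on Cmp302 in the Twist line, SQSTM1 and UVRAG were lowest on its widest-contrast array. In the control line they were highest on the widest-contrast array, and ATG4C was the reverse in both lines. ATG9A, ATG2A and LAMP1 were lowest on that array in the Twist line and neither highest nor lowest on it in the control line. The part of the contrast was not tested.

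The cathepsins are the proteases of the lysosome. CTSD, an aspartic protease, read 8.85, 9.20 and 9.13 in the Twist line and 9.92, 9.45 and 9.79 in the control line. CTSL, a cysteine protease, read 12.53, 12.47 and 12.38 in the Twist line and 11.53, 11.67 and 11.57 in the control line. Neither was called on Cmp302, nor was CTSB, whose Twist-line estimate was 0.36 (limma adjusted p = 0.052).

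Over the 94 probe sets of the members above the floor on at least 1 of the 2 Twist-line arrays, 11 were higher and 3 lower past 2-fold at 10 µM, beside 8.53% and 8.63% of 23655 probe sets with 1 symbol. The median was 0.17, beside 0.00 over all, with 54 above 0 and 40 below. Of the 25 members with at least 2 probe sets above the floor on all arrays, 4 had probe sets past 0.5 log2 units in opposite directions. The median SD between probe sets of a gene was 0.479 for this change, so a value read from 1 probe set has an uncertainty of this order beside its limma SE.

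**Figure D3:**
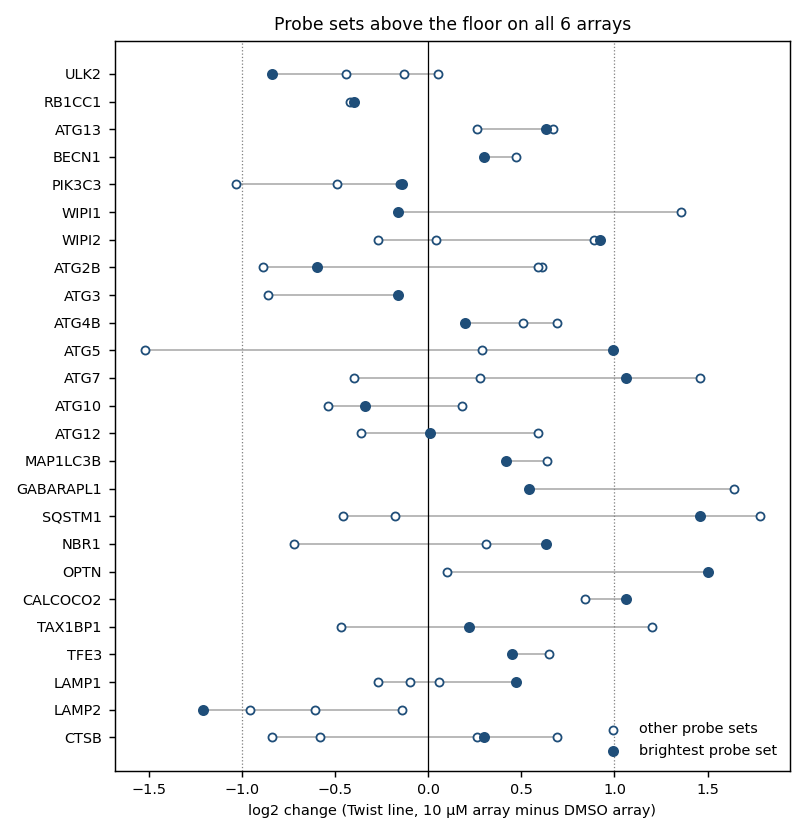
Log2 change of the Twist line between the 10 µM and DMSO arrays (horizontal axis) for each probe set above the floor on all 6 arrays, in the 25 members with at least 2 (rows); filled points are the brightest probe set, open points the others. ATG5 has the widest spread, from -1.52 to 0.99, while all 4 probe sets of LAMP2 lie below 0.

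The second question was whether the response to Cmp302 differed between the lines, tested as the interaction in the same limma fit. The response was higher in the Twist line for 8 members and lower for 2, or 20.51% and 5.13% of the members, beside 11.9% and 13.6% of all genes. The 8 were ATG101, OPTN, CALCOCO2, ATG5, SQSTM1, WIPI2, ATG9A and LAMP1, and the 2 were LAMP2 and RB1CC1. The widest difference in each direction was 1.71 ± 0.24 for ATG101 (limma adjusted p = 0.02) and -1.42 ± 0.18 for LAMP2 (limma adjusted p = 0.02). The median over members was 0.27, beside 0.04 over all genes. ULK2, ATG2A, UVRAG and ATG4C were called in the Twist line alone, and their differences between lines did not pass the test, with UVRAG at 0.81 ± 0.22 (limma adjusted p = 0.051). All 10 calls were lost when any 1 of the Cmp302 arrays was left out.

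The third question was how the lines differ. Fitted over the 3 treatments, 8 members read higher and 1 read lower in the Twist line, with SQSTM1, WIPI1 and ATG4B widest above and ATG4A below. This is 20.51% and 2.56% of the members, beside 13.8% and 14.7% of all genes in limma, and the median was 0.27, beside 0.00 over all genes. The fit has no interaction, so its estimates average the DMSO pair with both Cmp302 pairs. Its residuals hold the differences between lines in their response to treatment. Without either DMSO array, or without the DMSO pair, the same fit called 19 members higher and 6 lower, beside 28.2% and 28.7% of all genes in the fit without the pair. SQSTM1 was 3.33-fold higher on DMSO, 8.04-fold at 5 µM and 7.99-fold at 10 µM, and differed by 2.58 ± 0.32 (limma adjusted p = 0.00287).

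WIPI1 was 5.33-fold higher on DMSO and differed by 2.11 ± 0.22 (limma adjusted p = 0.00152), and its other probe set was higher by 1.96 on DMSO. ATG4B was higher by 1.32 ± 0.20 (limma adjusted p = 0.00621) and ATG4A lower by -1.58 ± 0.20 (limma adjusted p = 0.00311), each with narrow ranges over the 3 treatments. The 2 proteases, which both trim ATG8 proteins, thus stood on opposite sides of the line comparison. ATG9A, CTSL, TFEB and ATG16L1 were also higher, by 1.22, 0.87, 0.81 and 0.79 (limma adjusted p from 0.00656 to 0.0442). On DMSO alone ATG9A and ATG16L1 were each higher by 0.52, and CTSL and TFEB by 1.00 and 0.95. ATG7 was called higher, at 1.22 ± 0.29 (limma adjusted p = 0.0313), but on DMSO its brightest probe set gave 0.59 and its probe sets ran from -1.71 to 1.76.

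On the DMSO arrays alone 4 members read past 2-fold higher and 3 past 2-fold lower in the Twist line, beside 12.1% and 13.3% of 12505 genes, with a median of 0.01. The 4 were WIPI1, SQSTM1, ATG4B and CTSL, and the 3 were ATG4A, OPTN and CTSD, the last at -1.07. For OPTN this holds for the brightest probe set, and the other gave 0.23. At 5 µM 7 were higher and 1 lower, beside 12.3% and 12.5% of genes, and at 10 µM 8 were higher and 2 lower, beside 14.8% and 14.1%. The comparison at 5 µM does not use the DMSO arrays, and the 3′ minus middle contrast of its arrays differed by -0.095, against 0.675 between the DMSO arrays. In it SQSTM1, WIPI1, ATG9A, ATG4B, ATG7, CALCOCO2 and ATG16L1 were past 2-fold higher in the Twist line and ATG4A lower.

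The 12 members not given by array had line estimates from -0.54 to 0.51 and Twist-line Cmp302 estimates from -0.67 to 0.59, none called. Over all members 13 had every Twist-line array above every control-line array and 6 had every one below. The same share over all genes was not computed, so nothing particular to the members is read from these counts.

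**Figure D4:**
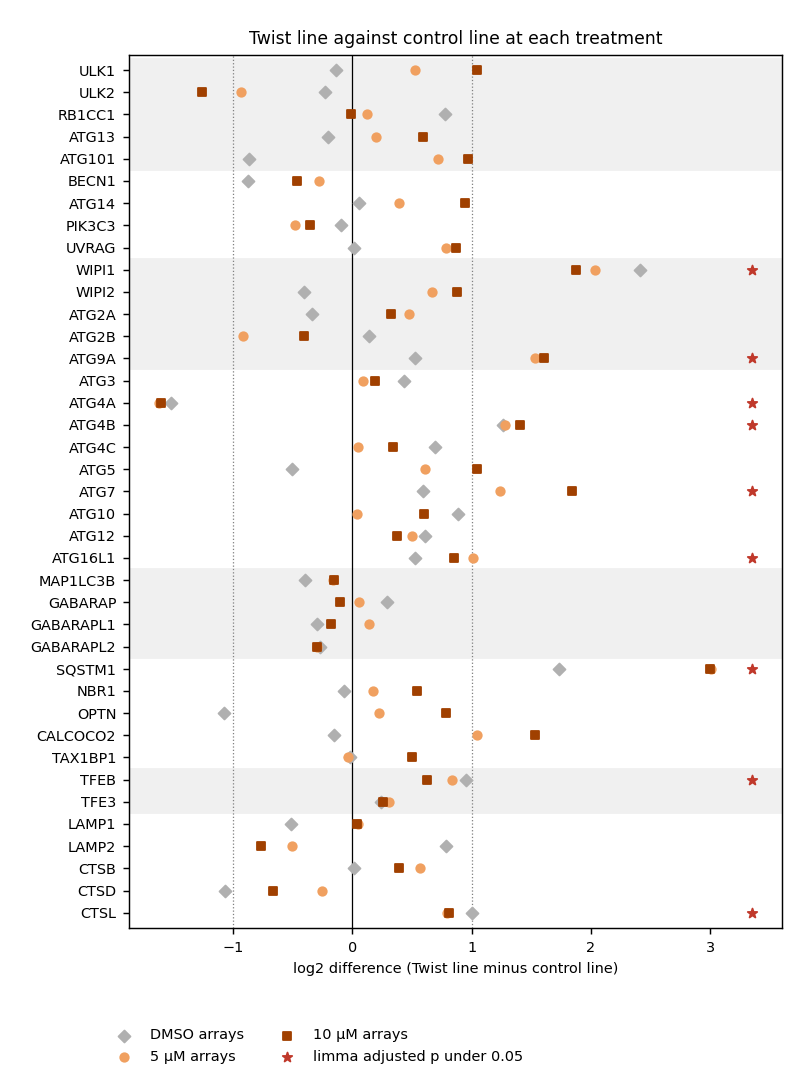
Log2 difference between the Twist line and the control line (horizontal axis) of the 39 members (rows, shaded by role) on the DMSO (diamonds), 5 µM (circles) and 10 µM (squares) arrays, with dotted lines at 2-fold and stars for the 9 limma calls over the 3 treatments. WIPI1, ATG4A and ATG4B hold their place over treatments, while OPTN and ATG101 lie below 0 on DMSO and above 0 on both Cmp302 arrays. Points are the brightest probe sets, and the other probe set of OPTN was above 0 on every treatment.

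The wider pathway was read from 7 lists of other autophagy and lysosome genes, 127 in all, of which 117 were tested. On Cmp302 in the Twist line 19 rose and 16 fell, with a median of 0.13, beside the 15.2% and 17.6% of all genes above, and in the control line limma called 0, with 14 at an unadjusted p under 0.05. The Cmp302 counts of each list below stand beside those same shares, and counts near them are not read as a trait of the list. Of 14 other core genes 3 rose and 1 fell. WDR45, a PI3P binder of the WIPI family, rose by 1.22 ± 0.20, the membrane proteins VMP1 and TMEM41B, both lipid scramblases, rose by 0.97 and 0.66, and RUBCN, the inhibitor rubicon, fell by 0.67 (limma adjusted p from 0.0139 to 0.0229).

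Of 14 fusion genes 2 fell and none rose, beside 17.6% and 15.2% of all genes. VPS41, of the HOPS tethering complex, fell by 1.41 ± 0.17 and the SNARE protein SNAP29 by 0.54 ± 0.14 (limma adjusted p of 0.0127 and 0.0355). Of 12 receptors for the endoplasmic reticulum and mitochondria 1 rose, PHB2, by 0.87, and 2 fell, BNIP3 by 0.60 and ATL3 by 0.51 (limma adjusted p from 0.0191 to 0.0305).

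The vacuolar ATPase pumps protons into the lysosome. Of 15 subunit and accessory genes 5 rose and 1 fell on Cmp302 in the Twist line, beside 15.2% and 17.6% of all genes, with a median of 0.25. The response was higher in the Twist line for 5 and lower for 2, beside 11.9% and 13.6% of all genes. ATP6V1H read 10.51, 11.42 and 11.49 in the Twist line and 11.91, 11.28 and 11.17 in the control line. On DMSO the Twist line was the lower one, and on Cmp302 the higher. ATP6V1H, ATP6V0B and ATP6V1E1 rose by 0.94, 0.82 and 0.81, and ATP6V1C1 fell by 0.87 (limma adjusted p from 0.0128 to 0.0214). ATP6AP2, an accessory subunit, was called in the difference between lines, at -0.61 ± 0.14 (limma adjusted p = 0.0338).

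Of 27 other hydrolases 4 rose and 3 fell, beside 15.2% and 17.6% of all genes. GLA, alpha-galactosidase, rose by 0.90, and CTSC, a protease that activates others, by 0.95, while ARSB, a sulfatase, fell by 1.58, LGMN, legumain, by 0.94 and PPT1, a thioesterase, by 0.46 (limma adjusted p from 0.0129 to 0.0497). CTSZ was called in the difference between lines, at 1.82 ± 0.38 (limma adjusted p = 0.0283), where its control-line change at 10 µM was -1.15 and its Twist-line change 0.72.

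Of 16 membrane and sorting genes 3 rose and 4 fell, beside 15.2% and 17.6% of all genes. NPC1 and NPC2, which pass cholesterol out of the lysosome, rose by 1.24 and 0.44 and the tetraspanin CD63 by 0.58, while the sialic acid transporter SLC17A5 fell by 1.37, IGF2R, a receptor for mannose 6-phosphate, by 1.29 and GNPTAB, which makes that tag, by 0.82 (limma adjusted p from 0.0127 to 0.0248). Of 19 genes of mTORC1 control at the lysosome 3 rose and 3 fell, beside the same shares of all genes. MITF, a relative of TFEB, rose by 0.89, TSC2, an mTORC1 inhibitor, by 0.91 and the Ragulator subunit LAMTOR4 by 0.57, while the folliculin partners FNIP2 and FNIP1 fell by 1.76 and 0.84 and LAMTOR5 by 0.40 (limma adjusted p from 0.0127 to 0.0421).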

How the data were processed

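The deposited table holds 1 column per array for 54675 probe sets. Its values were read as log2 signals, since the authors' labels name no unit and the values fit that scale. The submitters' processing notes name GCOS 1.2, and the background correction, summarisation and normalization are not given in the sources used here. Each array was shifted to the mean array by the median log2 ratio of the probe sets above the 65th percentile (shifts from -0.03 to 0.02), and signals under the median of all values, 3.71, were set to it.

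A gene was read by its brightest probe set among the 41091 with 1 symbol, from the platform annotation with symbols updated through the RefSeq table of GRCh38.p14, and 1 further probe set named for 2 genes including a member was not used. The 12476 genes whose signal passed the floor on 2 or more arrays were tested with limma (version 3.58.1, R 4.3.3, eBayes with a trend on signal), which was checked on simulated data. There the Twist-line Cmp302 test and the interaction test recovered 0% of the steps of 1 log2 unit. Of the steps of 2 log2 units they recovered 67.5% and 44.5%, so these fits can miss changes of either size. Cmp302 was coded 0, 1 and 1, since the labels disagree on the step between levels. One fit had line, Cmp302 and their interaction, the other line and treatment. Spreads are between single cultures of unstated relation, so p-values measure the spread between these arrays.

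All array values are given for the 27 members past 2-fold in any of the 7 single-array changes, called in any of the 4 limma terms, or of the ATG8 family. Of each wider list, up to 3 genes each way called on Cmp302 in the Twist line or in the interaction were named, by their change at 10 µM. Of the 127 genes of these lists 121 were found on the array. The members and lists were chosen with earlier results of these data known. Alternatives were other scalings, floors, probe-set rules, codings and filters, and leaving out arrays.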

Additional observations from a re-analysis of the deposited data

Results flagged for a closer look

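The response to Cmp302 differed between the lines in limma's interaction test for 10 members, given as the Twist-line minus the control-line response in log2 units. It was 1.71 for ATG101, 1.58 for OPTN, 1.44 for CALCOCO2, 1.33 for ATG5, 1.27 for SQSTM1, 1.18 for WIPI2, 1.04 for ATG9A and 0.56 for LAMP1. It was -0.72 for RB1CC1 and -1.42 for LAMP2. All 10 rest on 1 array per group. The 3′ minus middle contrast moved in opposite directions in the lines on Cmp302, by -0.51 in the Twist line and 0.555 in the control line at 10 µM. The 3′ minus 5′ contrast was 1.075 on DMSO and 1.065 at 10 µM in the Twist line, and 0.735 and 1.02 in the control line. The part of either contrast was not tested.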

How the results depend on the processing

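Of 32 calls of a member in a limma term, 5 were kept under every alternative that left out no array and still tested the gene. These were WIPI1, ATG4B, ATG4A, TFEB and CTSL between the lines. TFEB was not tested with the floor at the 65th percentile, at 6.02. ATG4B and CTSL were not tested without the probe sets of suffix _x_at or _s_at. The deposited scaling kept all 32. Under the alternatives run, the medians of the single-array changes over the members moved by less than the median SD between probe sets of a gene for that change. Whether medians near 0 kept their sign was not checked. With no filter on low signals the Cmp302 counts in the Twist line and the difference counts were 0 higher and 0 lower, and 4 members were higher between lines. With the levels coded 0, 1 and 2 the difference counts were 0 and 0. With the median over probe sets 6 members rose on Cmp302 in the Twist line and 2 differed upwards, and past 2-fold were 4 higher and 1 lower between lines at 10 µM, 3 higher at 5 µM, 3 and 0 in the Twist line at 10 µM, and 1 and 0 at 5 µM. Without the probe sets of suffix _x_at or _s_at (29 members left) these counts were 4 and 2, then 4, 3 (with 2 lower), 3 and 1, with 3 higher and 2 lower in the line fit and 1 higher past 2-fold in the control line at 10 µM. Signs reversed with the median over probe sets for ATG5, LAMP1, SQSTM1 and WIPI2, to -0.21, -0.056, -0.14 and -0.27 on Cmp302 in the Twist line and to -0.30, -0.031, -0.24 and -0.17 in the difference, and for SQSTM1 to -0.30 between lines. Without those suffixes SQSTM1 gave -0.26 on Cmp302, -0.65 in the difference and -0.32 between lines, ATG7 -1.71 between lines and OPTN -0.021 in the difference, each then read by a dimmer probe set. Without the DMSO pair 19 members were higher and 6 lower between lines. Leaving out 1 array at a time gave 3 to 19 higher and 1 to 6 lower between lines, 0 to 10 higher and 0 to 3 lower on Cmp302 in the Twist line, and 0 in the difference, where 1 residual degree of freedom remained. The cause of the other shifts was not tested. The shares of all genes under most of these settings are not given here, so nothing particular to the members is read from these counts. The line fit compared the lines within each treatment. No pairing of replicates was possible because each group has 1 array and the titles carry no replicate numbers.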

Other observations

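Between the lines the wider lists held 11 genes higher and 12 lower in the Twist line, out of 117 tested in limma, beside 13.8% higher and 14.7% lower of all genes. The following were named after their values were seen. VAMP8, a SNARE protein of autophagosome fusion, read 8.03, 7.72 and 7.33 in the Twist line on DMSO, 5 µM and 10 µM, against 12.51, 12.42 and 12.18 in the control line, and was lower by -4.68 ± 0.20 (limma adjusted p = 5.54e-05). The cysteine cathepsins CTSV and CTSH were lower by -3.86 and -2.58, and CTSS did not exceed the floor in the Twist line, against 5.62 to 6.04 in the control line. MITF and RETREG1, an endoplasmic reticulum receptor of autophagy, were higher by 2.53 and 1.80. All 15 vacuolar ATPase genes had estimates below 0 between the lines, of which 3 were called lower. On DMSO 7 of 15 were lower past 2-fold, beside 13.3% of all genes, with a median of -0.82, against 1 with a median of -0.30 at 5 µM (12.5% of all genes) and 2 with a median of -0.21 at 10 µM (14.1%). The DMSO comparison uses the Twist-line array with the widest 3′ minus middle contrast, 0.955, and its part was not tested.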
